A study of Mus musculus with 35 samples.

Results

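The striatum of the adult mouse keeps a set of transcription factors that were switched on while its neurons were formed, and 10 of them are described here across 4 genotype groups. They were taken by symbol, by a rule that uses no measured level: Foxp1, Foxp2, Foxp4, Bcl11b, Ikzf1, Rarb, Rxrg, Zfp521, Meis2 and Zfhx3, which are 10 of the 39017 genes in the count table. All 10 were found, and all 10 passed the filter on low counts in every comparison. The lists of related genes given below were likewise lists of symbols. Both members and lists were chosen with earlier results of these data known, so they are not a blind choice.

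Medium-spiny neurons (MSNs), the GABAergic output cells, make up most of the striatum and are the cells that degenerate first in Huntington's disease. Bcl11b (Ctip2), a zinc finger protein, is needed for MSNs to mature, and the forkhead repressors Foxp1 and Foxp2 and the homeobox protein Meis2 are kept at high level in these cells into adult life. The nuclear receptors Rarb and Rxrg bind DNA as a pair of unlike subunits and switch on target genes when Rarb holds retinoic acid, and the striatum is one of the brain regions where retinoic acid signalling stays active after birth.

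RNA was sequenced from 35 striata, 1 library per mouse. The mice were aged 21.71 to 23 weeks. Mice written Htt Q111/+ carry 1 knock-in huntingtin allele with an expanded CAG repeat, of 110 to 140 repeats in mice with Hdac2 and 110 to 144 in mice without it, and those written Htt +/+ carry 2 alleles of 7 repeats. Hdac2, a class I histone deacetylase, was removed by recombination of loxP-flanked exons with the D9-Cre transgene, whose promoter fragment comes from Ppp1r1b (DARPP-32) and which acts in MSNs after weaning, so other striatal cells keep the gene. The groups were Htt +/+ Hdac2 WT (8 mice, 5 of them male), Htt Q111/+ Hdac2 WT (7 mice, 4 male), Htt +/+ Hdac2 KO (9 mice, 5 male) and Htt Q111/+ Hdac2 KO (11 mice, 8 male). Every Hdac2 KO mouse carried Cre and no Hdac2 WT mouse did, so the deletion and the transgene cannot be told apart. The lines were on C57BL/6J, with a floxed line that began on a C57BL/6 and 129SeEv mixture and was not fully backcrossed. The library totals had a median of 57322618 counts and lay between 50970712 and 77867348.

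Values are CPM, counts per 1000000 counts of the library after TMM scaling, with the standard deviation between mice, and fold changes are log2 differences from a negative binomial model with a quasi-likelihood test (edgeR) fitted over all genes. A gene was called at an adjusted p under 0.05. The model holds 9 surrogate variables, which are patterns of variation between libraries estimated from the counts themselves, so a fitted fold change can differ from the ratio of group means. The counts include introns, and CPM is not divided by gene length, so levels are compared between groups and not between genes.

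Several features of the libraries bear on what follows. Hdac2 counts, which include the exons that are not deleted and the cells without Cre, ranged from 95.5 to 111 CPM in the Hdac2 WT groups and from 89.4 to 101 CPM in the KO groups. All 15 MSN markers were detected in every group, and their summed level had medians of 19694 CPM in Htt +/+ Hdac2 WT, 14005 in Htt Q111/+ Hdac2 WT, 17725 in Htt +/+ Hdac2 KO and 15773 CPM in Htt Q111/+ Hdac2 KO. In tissue RNA, fewer MSNs and less RNA per MSN cannot be told apart. Markers of cortical projection neurons were high in 3 libraries, at 493 CPM in Htt Q111/+ Hdac2 WT replicate 7 and at 219 and 181 CPM in Htt +/+ Hdac2 KO replicates 6 and 2, against group medians of 57.0 to 64.4 CPM. RNA of WT mice was extracted on other days than RNA of KO mice, with 2 exceptions given below.

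Rarb is a known target of its own product, through a retinoic acid response element in its promoter, and that stretch is shown because Rarb was called in Htt +/+ mice without Hdac2 in 15 of 15 settings of the model. The search was for a direct repeat of the units GTTCA or GGTCA, with a fixed number of free bases (N) between them. The 4 spellings were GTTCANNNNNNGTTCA, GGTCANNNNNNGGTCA, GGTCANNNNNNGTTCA and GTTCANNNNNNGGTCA. Both strands of the RefSeq promoter windows were searched (250 bases before to 50 after each start, GRCm38.p6). The motif was chosen with the Rarb element in mind. Of 10 members, 8 had windows and 1, Rarb, held a match. None of 11 paralogs with a window did, and 1 of 9 retinoid genes did, Cyp26a1, which encodes an enzyme that clears retinoic acid. Of all 32851 windows, 0.247% held a match. Capitals mark the repeat and the bases between its units:
Rarb, chr14:16575506-16575535, minus strand: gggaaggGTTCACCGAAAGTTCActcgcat
Cyp26a1, chr19:37697769-37697798, minus strand: caaattaGTTCACCCAAAGTTCAtctttaa
The Rarb match begins at position -52 from the RefSeq start and lies in an exon of longer Rarb transcripts in the GENCODE M21 annotation. Rxrg, the partner receptor, held none of these letters in its window, of which the 250 bases upstream of the start are 49.2% G and C:
Rxrg, chr1:167598112-167598361, plus strand: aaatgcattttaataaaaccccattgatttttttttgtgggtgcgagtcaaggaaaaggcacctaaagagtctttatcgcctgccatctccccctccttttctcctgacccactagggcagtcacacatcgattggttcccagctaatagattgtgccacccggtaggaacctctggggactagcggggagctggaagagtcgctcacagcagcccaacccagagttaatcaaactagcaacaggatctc

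The 2 retinoid receptors and Meis2 were lower in mice without Hdac2 on the Htt +/+ background. These 3 of 10 members were called, all of them lower, where 17.8% of all genes tested were called and 8.79% were called lower. The edgeR test called no member higher, but DESeq2 called Foxp4 (+0.18, adjusted p = 0.0475). The median log2 fold change of the members was -0.07 and that of all genes tested was -0.00.

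Rarb, the retinoic acid receptor beta (ENSMUSG00000017491, GRCm38 chr14:16430842-16575472, minus strand), fell the most evenly. In Htt +/+ Hdac2 WT the lowest, median and highest values were 181, 192 and 220 CPM, and in Htt +/+ Hdac2 KO they were 133, 153 and 177 CPM. The groups did not overlap, as was so in the lower direction for 2.29% of genes tested. The means were 194 ± 12.4 CPM (SD, n = 8) and 153 ± 13.8 CPM (SD, n = 9), and the log2 fold change was -0.30 (SE 0.059, adjusted p = 0.000477). Leaving out Htt +/+ Hdac2 WT replicate 8, the highest library, gave -0.23 (adjusted p = 0.00125).

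Rarb fell with the loss of Hdac2 in Htt Q111/+ mice as well. Values ran from 136 through a median of 170 to 190 CPM with Hdac2 and from 134 through 151 to 161 CPM without it, so the groups overlapped. The log2 fold change was -0.24 (SE 0.053, adjusted p = 0.00200). The group means were therefore highest in Htt +/+ Hdac2 WT (194 CPM), followed by the Htt Q111/+ mice that keep Hdac2 (168 ± 18.5 CPM, n = 7), the Htt +/+ mice without it (153 CPM) and the mice with both genotypes (150 ± 8.60 CPM, n = 11). Neither step between Htt genotypes passed the test in the model with surrogate variables. The Htt Q111 log2 fold change was -0.13 (95% interval -0.25 to -0.01, adjusted p = 0.376) with Hdac2 and -0.06 (-0.16 to 0.03, adjusted p = 0.802) without it. With Hdac2 it was called at -0.22 (adjusted p = 0.0413) with extraction date in the model, at -0.20 (adjusted p = 0.0381) with the ID series described below, and at -0.22 (adjusted p = 0.0316) without the mice of the A series.

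Rxrg, the retinoid X receptor gamma (GRCm38 chr1:167598384-167639621, plus strand), had its highest level in the same group. Its lowest, median and highest values were 206, 238 and 283 CPM in Htt +/+ Hdac2 WT and 167, 187 and 235 CPM in Htt +/+ Hdac2 KO, where 7 of 9 libraries lay below the lowest Hdac2 WT value. The log2 fold change was -0.38 (SE 0.085, adjusted p = 0.00176). In Htt Q111/+ mice the levels were 143, 186 and 220 CPM with Hdac2 and 145, 186 and 219 CPM without it. These ranges are nearly the same, and the log2 fold change of -0.13 (95% interval -0.29 to 0.03) did not pass (adjusted p = 0.273).

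The 3 other groups of Rxrg thus lay together, with means of 182 ± 29.6 (n = 7), 191 ± 26.0 (n = 9) and 187 ± 25.4 CPM (n = 11), below 241 ± 27.6 CPM (n = 8) in Htt +/+ Hdac2 WT. With Hdac2 present, 5 of 7 Htt Q111/+ libraries were below the lowest control. The fitted Htt Q111 effect there was -0.22 (SE 0.081, adjusted p = 0.271). It depended on the covariates, and was -0.46 (adjusted p = 0.000618) when ID series replaced the surrogate variables. Without Hdac2 the Htt Q111 effect was 0.03 (95% interval -0.11 to 0.16, adjusted p = 0.963). The difference between these effects, +0.26 (SE 0.103), had a nominal p of 0.0170 by the quasi-likelihood test and an adjusted p of 0.866.

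Meis2, a TALE homeobox protein that acts with Pbx partners (GRCm38 chr2:115863064-116065839, minus strand), showed smaller differences against a small spread. The lowest, median and highest values were 586, 615 and 640 CPM in Htt +/+ Hdac2 WT, 459, 543 and 601 CPM in Htt Q111/+ Hdac2 WT, 487, 562 and 595 CPM in Htt +/+ Hdac2 KO, and 500, 543 and 574 CPM in Htt Q111/+ Hdac2 KO. Loss of Hdac2 in Htt +/+ mice gave -0.15 (SE 0.039, adjusted p = 0.00604), with 7 of 9 KO libraries below every control. In Htt Q111/+ mice it gave -0.08 (95% interval -0.15 to -0.01, adjusted p = 0.117). The Htt Q111 effect with Hdac2 was -0.13 (95% interval -0.21 to -0.06, adjusted p = 0.110), which DESeq2 called (adjusted p = 0.0417). In edgeR it was called at -0.19 (adjusted p = 0.0225) with extraction date and at -0.17 (adjusted p = 0.0229) with ID series. Without the mice of the A series it was called at -0.20 (adjusted p = 0.00272). Averaged over both Hdac2 genotypes, the Htt Q111 effect was -0.10 (SE 0.024, adjusted p = 0.0281). That did not pass without the 3 libraries of high cortical markers (adjusted p = 0.102).

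**Figure D1:**
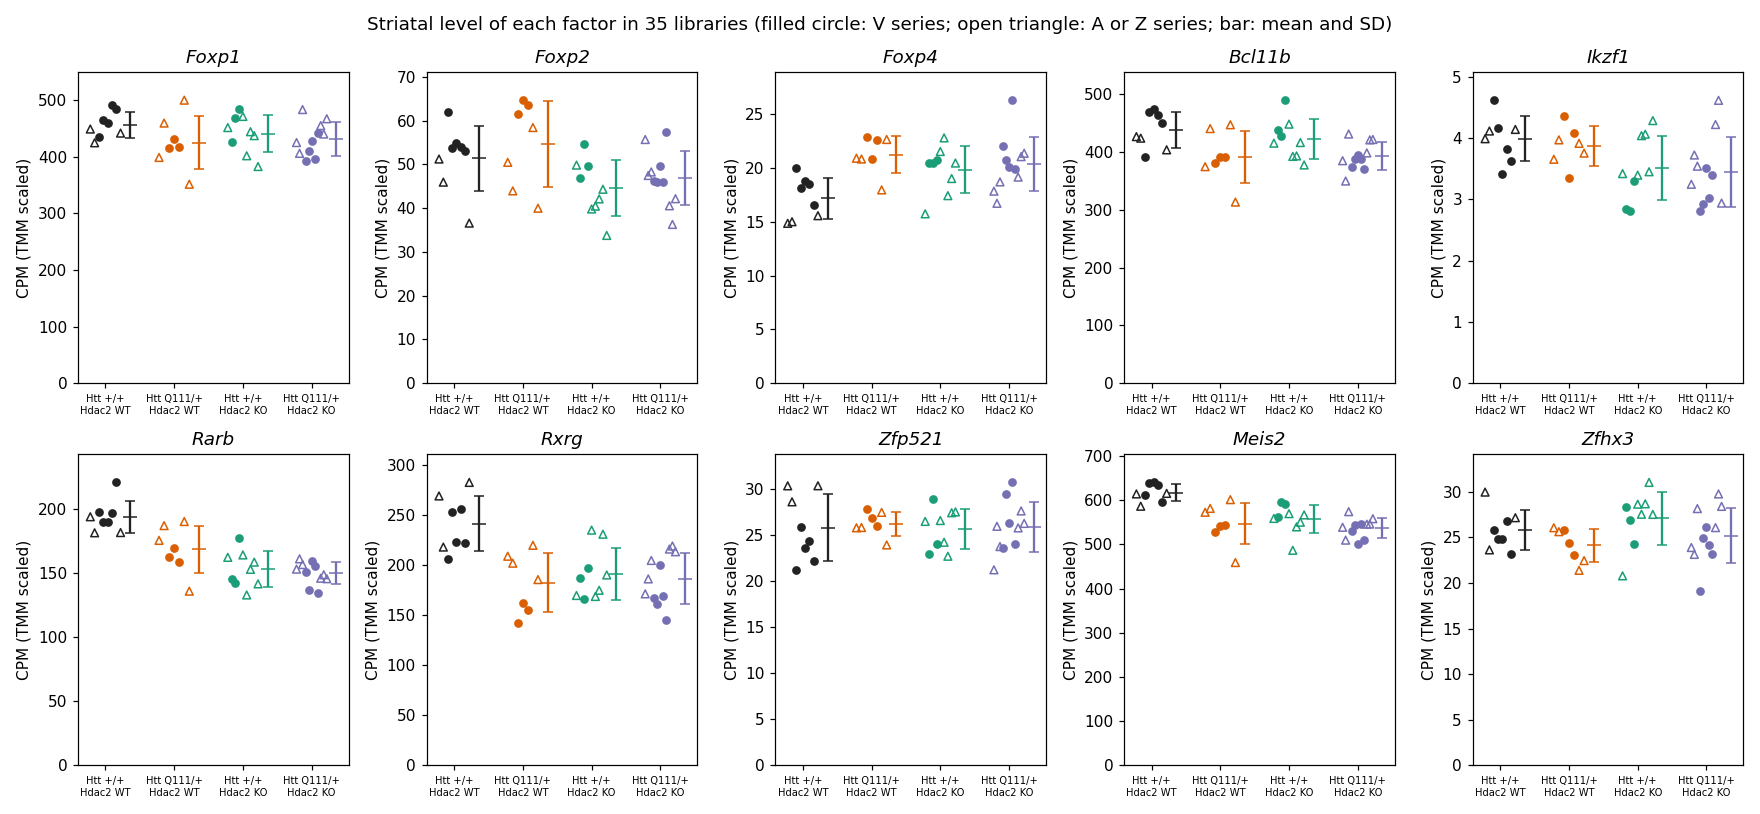
Level of each of the 10 transcription factors in every library (y axes, CPM, starting at 0) by genotype group (x axes), with 1 point per mouse, circles for the V series of mouse IDs and triangles for the A and Z series, and bars for the group mean and standard deviation. Rarb points of the Htt +/+ Hdac2 KO group, 133 to 177 CPM, all lie below those of the Htt +/+ Hdac2 WT group, 181 to 220 CPM.

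MSN markers moved in part with these 3 genes. In Htt +/+ mice without Hdac2, 5 of 15 MSN markers were called lower, 2 higher and 8 not at all, and the summed level ran from 15821 to 19164 CPM against 17924 to 20269 CPM with Hdac2. In Htt Q111/+ mice, where Rarb fell as well, 1 of 15 was called lower and 2 higher. The part of the markers in these results was not tested.

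The days of RNA extraction followed Hdac2 genotype but for 2 libraries. On 27 May, Htt +/+ Hdac2 KO replicate 9 stood at 141 CPM for Rarb beside 189, 197 and 197 CPM in 3 Htt +/+ Hdac2 WT libraries. On the same day it stood at 190 CPM for Rxrg beside 206, 254 and 256 CPM, and at 567 CPM for Meis2 beside 612, 634 and 639 CPM. It was below all 3 controls for each gene, but it was of the Z series and the controls were of the V series. On 25 May, Htt Q111/+ Hdac2 KO replicate 1 stood at 153 CPM for Rarb, between the 136 and 170 CPM of the Htt Q111/+ Hdac2 WT libraries of that day. That mouse was of the A series, and the 136 and 170 CPM libraries were of the Z and V series. The 136 CPM library was replicate 7, the library of highest cortical markers. Day and series were thus not matched together in either set. When the day replaced the surrogate variables in the model, Rarb was still called in Htt +/+ mice, Rxrg gave -0.35 (adjusted p = 0.154) and Meis2 was not called, nor was Rarb in Htt Q111/+ mice (adjusted p = 0.385). That fit linked KO to WT mice only through these 2 KO libraries, so it cannot separate Hdac2 genotype from their series.

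**Figure D2:**
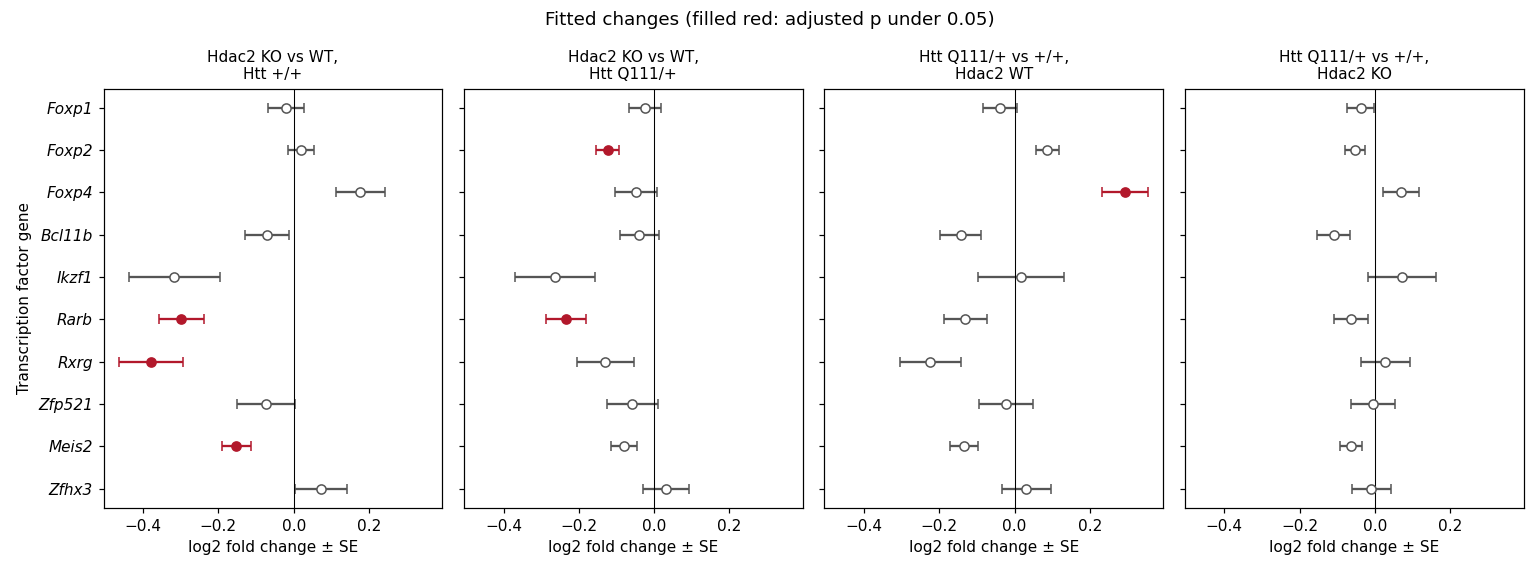
Fitted log2 fold changes of the 10 genes (x axes) with bars of 1 SE for the comparisons named on the panels, filled where the adjusted p was under 0.05 over all genes tested. Rarb lies at -0.30 and -0.24 in the comparisons of Hdac2 KO with WT, and Foxp4 at +0.29 in the comparison of Htt Q111/+ with Htt +/+ mice that keep Hdac2.

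Among the forkhead members, Foxp4 was the gene called higher with Htt Q111 in the main model. This repressor (GRCm38 chr17:47867133-47924426, minus strand) had lowest, median and highest values of 14.9, 17.4 and 20.0 CPM in Htt +/+ Hdac2 WT and 18.0, 20.9 and 22.8 CPM in Htt Q111/+ Hdac2 WT. In 6 of 7 Htt Q111/+ libraries it was above every control. The means were 17.2 ± 1.94 (n = 8) and 21.2 ± 1.71 CPM (n = 7), and the log2 fold change was +0.29 (SE 0.061, adjusted p = 0.0223). It was the 1 member of 10 called for Htt Q111 with Hdac2 present, where 0.403% of all genes tested were called and 0.181% were called higher, and 6 of 10 members had a nominal p under 0.05, against 10.9% of genes. Without surrogate variables no member was called in this comparison.

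Without Hdac2, Foxp4 levels in the 2 Htt genotypes lay together. They were 15.7, 20.4 and 22.8 CPM in Htt +/+ Hdac2 KO and 16.7, 20.1 and 26.3 CPM in Htt Q111/+ Hdac2 KO, and the Htt Q111 effect was +0.07 (95% interval -0.03 to 0.17, adjusted p = 0.810). The difference of the effects was -0.22 (SE 0.077, nominal p by the quasi-likelihood test 0.00793, adjusted p = 0.694). Loss of Hdac2 in Htt +/+ mice gave +0.18 (95% interval 0.04 to 0.31), just outside the threshold (adjusted p = 0.0588). It was called there with DESeq2 and without surrogate variables (+0.21, adjusted p = 0.0435), as in 6 of 15 settings in all. Loss of Hdac2 in Htt Q111/+ mice gave -0.05 (-0.17 to 0.07). Averaged over both Hdac2 genotypes, the Htt Q111 effect on Foxp4 was +0.18 (SE 0.040, adjusted p = 0.0184). That call held in 8 of 14 settings, with values from 0.10 to 0.23 and an adjusted p of up to 0.246.

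Foxp2, known for its part in vocal learning and in corticostriatal circuits (GRCm38 chr6:14901349-15439048, plus strand), was called lower without Hdac2 in Htt Q111/+ mice. Its lowest, median and highest values there were 40.0, 58.4 and 64.7 CPM with Hdac2 and 36.3, 46.2 and 57.4 CPM without it, so the ranges overlapped widely. The log2 fold change was -0.12 (SE 0.030, adjusted p = 0.00360). With Rarb, Foxp2 made 2 of 10 members called in this comparison, both lower, where 16.5% of genes tested were called and 8.86% were called lower. Foxp2 was called in 9 of 15 settings of the model, with fold changes from -0.32 to -0.08, so its size was set in part by the covariates.

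In Htt +/+ mice the same covariates decided the direction for Foxp2. The group means were 51.4 ± 7.44 CPM (n = 8) with Hdac2 and 44.6 ± 6.36 CPM (n = 9) without it, but the fitted log2 fold change was +0.02 (95% interval -0.05 to 0.09, adjusted p = 0.780). It was -0.14 (adjusted p = 0.0243) when only these 2 groups were fitted. The Htt Q111 effect was +0.09 (adjusted p = 0.271) with Hdac2 and -0.05 (adjusted p = 0.660) without it. The difference, -0.14 (SE 0.040), had the smallest nominal p of the members by the quasi-likelihood test, 0.00143, and an adjusted p of 0.549. Without the mice of the A series, edgeR called Foxp2 higher for Htt Q111 with Hdac2 (+0.13, adjusted p = 0.0152). Rarb, Rxrg and Meis2 were called in that setting as well, and Foxp4 was not.

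Foxp1 (GRCm38 chr6:98925338-99522721, minus strand), a paralog that Foxp2 and Foxp4 bind, was the forkhead member with no call in any of these comparisons. Group means were 456 ± 23.3 (n = 8), 425 ± 46.7 (n = 7), 441 ± 33.1 (n = 9) and 431 ± 29.3 CPM (n = 11), with the Hdac2 WT groups before the KO groups and Htt +/+ before Htt Q111/+ in each. The log2 fold change for loss of Hdac2 was -0.02 in Htt +/+ mice (95% interval -0.12 to 0.08) and -0.02 in Htt Q111/+ mice (-0.11 to 0.06). Each interval leaves out the -0.30 and -0.24 fitted for Rarb in the same comparison.

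Bcl11b (GRCm38 chr12:107910403-108003414, minus strand) was lower in Htt Q111/+ mice of either Hdac2 genotype without passing the test for each. In the same order of groups its means were 438 ± 31.1, 391 ± 44.7, 422 ± 34.2 and 393 ± 24.3 CPM. Lowest, median and highest values were 391, 439 and 474 CPM in Htt +/+ Hdac2 WT, 313, 391 and 447 CPM in Htt Q111/+ Hdac2 WT, 378, 416 and 490 CPM in Htt +/+ Hdac2 KO, and 350, 388 and 431 CPM in Htt Q111/+ Hdac2 KO. All 4 ranges overlapped. The Htt Q111 effects were -0.14 (adjusted p = 0.308) with Hdac2 and -0.11 (adjusted p = 0.540) without it, and their average was -0.13 (95% interval -0.20 to -0.06, adjusted p = 0.0675) in edgeR. DESeq2 called this average (-0.13, adjusted p = 0.0251), as did edgeR without the mice of the A series (-0.17, adjusted p = 0.0135).

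The remaining members were called in none of these comparisons. Ikzf1, a zinc finger protein best known in lymphocytes and also used by a class of striatal neurons, was low, with medians of 4.05 CPM (3.41 to 4.62) in Htt +/+ and 3.91 CPM (3.35 to 4.36) in Htt Q111/+ mice with Hdac2, and of 3.42 CPM (2.82 to 4.28) and 3.39 CPM (2.80 to 4.61) without it. Its log2 fold changes for loss of Hdac2 were -0.32 (95% interval -0.57 to -0.07, adjusted p = 0.0684) in Htt +/+ mice and -0.26 (-0.48 to -0.04, adjusted p = 0.0924) in Htt Q111/+ mice, and without Htt +/+ Hdac2 WT replicate 8 they were -0.38 (adjusted p = 0.0315) and -0.30 (adjusted p = 0.0466). The summed level of 5 lymphocyte markers had group medians of 131, 116, 92.4 and 89.3 CPM, and that of 10 microglia markers 642, 631, 710 and 658 CPM. Only 2 of the 5 lymphocyte markers passed the count filter, Cd4 and Ptprc. Their average log2 CPM was 6.66 and 2.59, so that sum was made mostly of Cd4. The part of either list in the Ikzf1 values was not tested.

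Zfp521, a zinc finger protein of striatonigral MSN development, had the most even means, at 25.8 ± 3.60, 26.2 ± 1.31, 25.7 ± 2.22 and 25.9 ± 2.73 CPM. Zfhx3, a zinc finger homeobox protein, had means of 25.8 ± 2.20, 24.1 ± 1.83, 27.1 ± 2.95 and 25.2 ± 3.00 CPM. The largest fitted log2 fold change of either gene in the comparisons of 1 genotype at a time was 0.07 in size, with 95% intervals of -0.23 to 0.09 for Zfp521 and -0.07 to 0.22 for Zfhx3, both for loss of Hdac2 in Htt +/+ mice.

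For Htt Q111 in mice without Hdac2, edgeR called 0 of 10 members, and 0.00584% of all genes tested. Nominal p-values under 0.05 were found for 3 members, Foxp2, Bcl11b and Meis2, against 7.52% of genes, and DESeq2 called 0 as well. For the difference between the Htt Q111 effects with and without Hdac2, edgeR and DESeq2 again called 0 of 10, where edgeR called 0.00577% of all genes, and 3 members had a nominal p under 0.05 (5.63% of genes). Averaged over Hdac2 genotypes, the Htt Q111 effect was called for 2 of 10 members, Foxp4 higher and Meis2 lower, where 1.27% of genes tested were called, and neither call held in all settings.

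Mice that carry Htt Q111 and lack Hdac2 were set against mice with neither change. There, 5 of 10 members were called, where 21.2% of genes tested were. Rarb gave -0.37 (SE 0.056, adjusted p = 1.34e-05), Rxrg -0.36 (SE 0.081, adjusted p = 0.00148), Meis2 -0.22 (SE 0.037, adjusted p = 6.27e-05), Bcl11b -0.19 (SE 0.055, adjusted p = 0.0145) and Foxp4 +0.24 (SE 0.061, adjusted p = 0.00403). Rarb and Meis2 did not overlap between the groups, both lower, as was so for 1.70% of genes tested. When extraction date replaced the surrogate variables, Rarb alone of these 5 was called (-0.41, adjusted p = 0.0103), and the adjusted p was 0.119 for Rxrg, 0.178 for Meis2, 0.200 for Bcl11b and 0.434 for Foxp4. That fit linked KO to WT mice only through the KO libraries extracted on days of WT mice. Of the MSN markers, 12 of 15 were called lower and 1 higher. Without Htt +/+ Hdac2 WT replicate 8, Bcl11b gave -0.12 (adjusted p = 0.133) and Rxrg -0.22 (adjusted p = 0.0148). This comparison shares its control group with those of 1 genotype at a time on that control, so the values are set side by side and are not independent.

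The mice came in series named by the first letter of their ID, and repeat length followed it. Htt Q111/+ mice of the V series had 131 to 140 repeats with Hdac2 (n = 3) and 131 to 144 without it (n = 5), and those of the A and Z series had 110 to 113 (n = 4) and 110 to 118 (n = 6). The controls of these series numbered 5 and 3 with Hdac2, and 3 and 6 without it. The Htt Q111 effect was therefore fitted within each series, averaged over Hdac2 genotype, with sex in the model and no surrogate variables. Series and repeat length cannot be told apart, and this split was chosen with earlier results of these data known.

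In the V series, 4 of 10 members were called, all lower, where 5.34% of genes tested were called and 3.41% were called lower. Rxrg gave -0.37 (SE 0.078, adjusted p = 0.00301), Bcl11b -0.23 (SE 0.055, adjusted p = 0.00796), Meis2 -0.19 (SE 0.041, adjusted p = 0.00419) and Rarb -0.19 (SE 0.057, adjusted p = 0.0496). The Rarb call was lost without Htt +/+ Hdac2 WT replicate 8 (adjusted p = 0.0921) and with sex left out of the model (adjusted p = 0.0699). Foxp1 gave -0.16 (adjusted p = 0.0778), and -0.17 (adjusted p = 0.0374) without the 3 libraries of high cortical markers.

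The libraries of the V series show these differences for Rxrg and Meis2. Rxrg stood at 206, 222, 223, 254 and 256 CPM in Htt +/+ Hdac2 WT and at 143, 155 and 162 CPM in Htt Q111/+ Hdac2 WT. Meis2 stood at 595, 612, 634, 639 and 640 CPM and at 528, 542 and 543 CPM. With Foxp1 and Rarb, these made 4 of 10 members whose Htt Q111/+ values all lay below the controls in V series mice with Hdac2, where 7.65% of genes did so. Foxp4 and Zfp521, 2 of 10, lay wholly above the controls there, against 6.84% of genes. Without Hdac2, Rxrg stood at 167, 187 and 197 CPM in Htt +/+ and at 145, 161, 167, 169 and 200 CPM in Htt Q111/+ mice, which overlapped. Meis2 stood at 562, 592 and 595 CPM and at 500, 509, 529, 543 and 546 CPM, which did not. In these mice 2 of 10 members, Bcl11b and Meis2, lay wholly below the controls, against 3.56% of genes.

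In the A and Z series edgeR called 0 of 10 members and 0 of 17346 genes, and 2 members, Foxp4 and Zfp521, had a nominal p under 0.05, against 5.40% of genes. DESeq2 was not run on this split. Foxp4 gave +0.21 (SE 0.065, adjusted p = 0.610) in these series and +0.18 (SE 0.069, adjusted p = 0.138) in the V series. Rxrg gave -0.15 (adjusted p = 0.922) and Bcl11b -0.06 (adjusted p = 0.998). A call in 1 split and not in the other does not show a difference. In the test of that difference itself, 0 of 10 members were called and 0.121% of genes, and 5 members had a nominal p under 0.05 against 7.80% of genes. Rxrg differed by -0.22 between the series (SE 0.105, adjusted p = 0.618) and Bcl11b by -0.17 (SE 0.075, adjusted p = 0.557). Zfp521 had the smallest nominal p of the members, with a difference of +0.27 (SE 0.083, adjusted p = 0.339) made of +0.13 in the V series and -0.13 in the others.

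The summed MSN marker level moved along the same split. Its median was 19835 CPM in Htt +/+ and 13129 CPM in Htt Q111/+ mice of the V series with Hdac2, and 17993 and 14326 CPM in those without it. In the A and Z series the medians were 19554 and 17021 CPM with Hdac2, and 17654 and 16503 CPM without it. The part of this in the members' values was not tested.

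**Figure D3:**
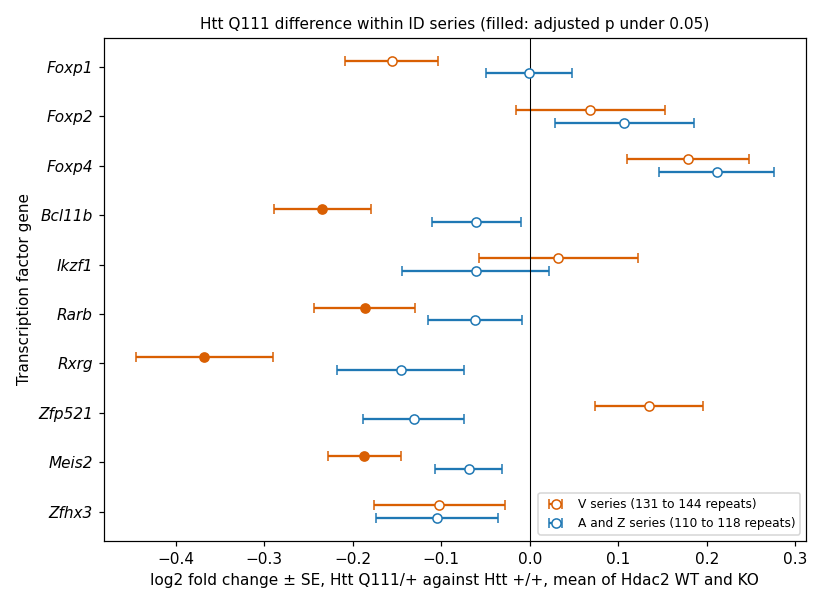
Htt Q111 effect on each of the 10 genes (x axis, log2 fold change with bars of 1 SE, averaged over Hdac2 genotype) within the V series, 131 to 144 CAG repeats, and within the A and Z series, 110 to 118 repeats, with filled points where the adjusted p was under 0.05. Rxrg lies at -0.37 in the V series and -0.15 in the A and Z series, and no member passed the test of the difference.

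How the members varied together was described over the 35 libraries after group means were taken off. These points share their library, its depth and the makeup of its tissue piece. Only the genotype means were taken off, so differences between ID series, and with them repeat length, stay in the correlations. In Htt Q111/+ Hdac2 WT, for example, mean Rxrg was 153 CPM in the V series and 204 CPM in the A and Z series. The part of the series in the correlations was not tested. Foxp1 and Bcl11b had the highest correlation among the 45 pairs (Pearson r = 0.84), then Bcl11b and Meis2 (0.74), Foxp1 and Meis2 (0.67), Foxp1 and Rarb (0.60) and Bcl11b and Rarb (0.59). These 4 genes formed the closest block. Each also followed the summed MSN markers, with r of 0.68 for Foxp1, 0.64 for Bcl11b, 0.62 for Rarb and 0.68 for Meis2, and ran against the cortical markers, with r of -0.64, -0.52, -0.65 and -0.62.

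Rxrg stood outside that block. Its r was 0.80 with the lymphocyte markers, a sum made mostly of Cd4, and 0.78 with the MSN markers. It was between 0.59 and 0.63 with the interneuron, endothelial, astrocyte and microglia markers, and -0.15 with the cortical markers. Among members, Rxrg went highest with Zfhx3 (0.46) and lowest with Foxp2 (-0.54). Foxp2 ran against the interneuron (r = -0.84), microglia (-0.78), lymphocyte (-0.68), endothelial (-0.66) and astrocyte markers (-0.51). Its r was -0.28 with the oligodendrocyte, -0.23 with the cortical, -0.22 with the MSN and 0.43 with the choroid plexus markers. For the interneuron and microglia markers, neither Foxp1 (-0.29 and -0.07) nor Foxp4 (0.06 and -0.08) had this pattern. In Htt Q111/+ Hdac2 WT replicate 7, the library of highest cortical markers, Foxp1, Bcl11b, Rarb and Meis2 were each at the lowest value of their group, 351, 313, 136 and 459 CPM. The correlations were not taken again without this library.

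**Figure D4:**
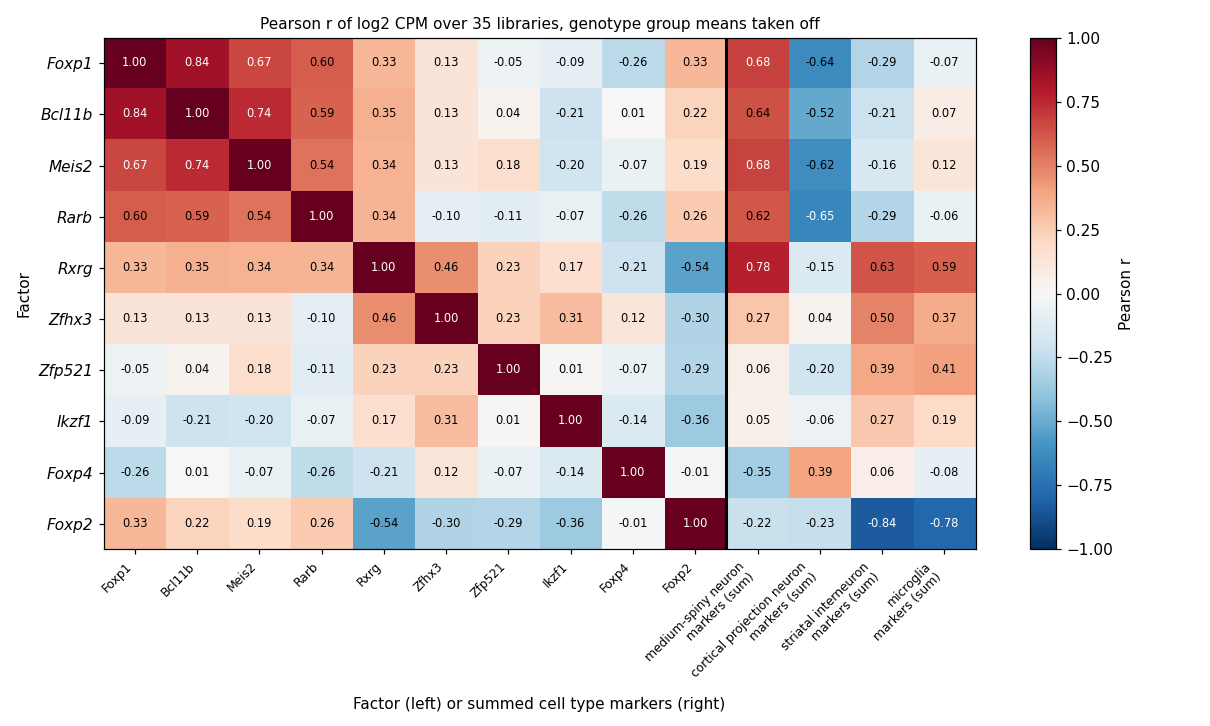
Pearson correlation between the 10 genes, and between each gene and the summed level of 4 marker lists, over 35 libraries. Genotype group means were taken off, and differences between ID series were left in. The colour scale runs from -1 to 1, and Foxp1, Bcl11b, Meis2 and Rarb form the block of highest values, from 0.54 to 0.84.

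Over 13722 other genes, the 2 whose levels followed each member most closely were found in the same way, and are given for all members but Foxp2. For Rarb they were Foxo1 (r = 0.77) and Gnb5 (0.76), for Rxrg Syndig1l (0.91) and Tspan7 (0.88), and for Meis2 Bcl11b (0.74) and Foxo1 (0.71). Foxp1 and Bcl11b were nearest to each other, with Tgfa next for both (0.83 and 0.75). Foxp4 went with BC018242 (0.78) and Usp35 (0.77). Zfp521 went with Meis1 (0.67) and Exd1 (0.67), Zfhx3 with Tbc1d16 (0.80) and Cit (0.76), and Ikzf1 with Slc6a8 (0.68) and Fgd6 (0.63).

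Related genes were called with loss of Hdac2 at shares to be read against 17.8% of all genes in Htt +/+ and 16.5% in Htt Q111/+ mice. In Htt +/+ mice, 2 of 11 tested genes of retinoid metabolism and binding rose and 1 fell. Crabp1, which binds retinoic acid in the cytoplasm, was at 7.84 ± 0.240 CPM (n = 8, range 7.35 to 8.08) with Hdac2. Without Hdac2 it was at 11.5 ± 0.461 CPM (n = 9, range 10.5 to 12.1). Its log2 fold change was +0.52 (SE 0.080, adjusted p = 1.77e-05). Rbp4, a retinol carrier, rose by +0.35 (SE 0.117, adjusted p = 0.0334). Dhrs3, which turns retinal back into retinol, fell, with a log2 fold change of -0.52 (SE 0.154, adjusted p = 0.0164). In Htt Q111/+ mice Crabp1 (+0.60, adjusted p = 4.30e-07) and Rbp4 (+0.46, adjusted p = 0.00226) rose and no gene of the list fell, so that the 2 of 11 called were near the share of all genes.

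The same 2 genes went the other way with Htt Q111. Averaged over Hdac2 genotypes, Rbp4 gave -0.39 (SE 0.070, adjusted p = 0.00291) and Crabp1 -0.20 (SE 0.049, adjusted p = 0.0320). With Hdac2, the median Rbp4 level was 15.7 CPM (13.8 to 18.4) in Htt +/+ and 13.1 CPM (8.81 to 15.1) in Htt Q111/+ mice. Without Hdac2 it was 21.6 CPM (19.5 to 26.4) and 16.6 CPM (12.4 to 21.9). The 2 comparisons share groups and are set side by side only.

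Of the members' paralogs, 14 of 15 were tested. In Htt +/+ mice without Hdac2, 2 rose and 2 fell. Rarg, the gamma form of the retinoic acid receptor, fell like Rarb, by -0.45 (SE 0.085, adjusted p = 0.000248), from 14.5 ± 1.69 to 11.1 ± 1.23 CPM, and it fell in Htt Q111/+ mice with -0.22 (adjusted p = 0.0378). Zfhx2 fell in both (-0.24 and -0.27, adjusted p = 0.00207 and 0.000203), and Ikzf4 (+0.28 and +0.24, adjusted p = 0.00119 and 0.00226) and Meis3 (+0.14 and +0.17, adjusted p = 0.0161 and 0.00155) rose in both. In Htt Q111/+ mice Ikzf2 (+0.33, adjusted p = 0.0235) and Ikzf3 (+0.55, adjusted p = 0.00305) rose too and Rxra (-0.15, adjusted p = 0.0244) fell, which makes 4 that rose and 3 that fell. Ikzf2 was named after its value was seen.

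The TALE partners of Meis2 and the other striatal lineage factors were called at shares near that of all genes. Of 8 TALE partners, 1 was called in each comparison of Hdac2 genotypes, Pknox2 in Htt +/+ mice (+0.26, adjusted p = 0.0315) and Pknox1 in Htt Q111/+ mice (-0.23, adjusted p = 0.0127). Of 19 other striatal lineage factors tested, 2 rose and 1 fell in Htt +/+ mice, and 0 rose and 3 fell in Htt Q111/+ mice. Pou3f1, a POU factor, fell in both, from 66.6 ± 7.05 to 43.7 ± 4.03 CPM in Htt +/+ mice (log2 fold change -0.66, SE 0.091, adjusted p = 3.32e-06) and with -0.52 (adjusted p = 2.27e-05) in Htt Q111/+ mice, where Sox4 (-0.21, adjusted p = 0.0190) and Mef2c (-0.14, adjusted p = 0.0311) fell as well. Sox11, a factor of immature neurons, rose in Htt +/+ mice (+0.53, SE 0.117, adjusted p = 0.00138), from 2.19 ± 0.684 to 2.67 ± 0.444 CPM with ranges that overlapped, and Dlx5, a factor of forebrain GABAergic neurons, rose as well (+0.22, adjusted p = 0.00455). No gene of these 4 lists was called for Htt Q111 within either Hdac2 genotype.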

How the data were processed

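Per the labels and the study's methods, the authors aligned reads with GSNAP to GRCm38 and counted them with bedtools over whole gene intervals of Ensembl 75, and the deposited values are raw counts per gene. The strand setting of the counting is not given in the sources used here. From 39109 entries, 32863 genes were kept after removal of 92 ERCC spike-ins, of 2 rRNA genes of the mitochondrion and of 6152 genes spanning at most 250 nt. Counts were fitted with edgeR 4.0.16 (quasi-likelihood, TMM) in R 4.3.3, over 35 libraries in 4 groups, with surrogate variables from sva 3.50.0 and Benjamini-Hochberg adjustment. A gene needed 6 counts in every library of at least 1 group compared. Intervals of 95% used 22 residual degrees of freedom. DESeq2 1.42.0 was an alternative. Correlations used log2(CPM + 0.5). The scripts were tested on simulated counts for loss of Hdac2 in Htt +/+ mice. Of the changed genes that were tested, they called 6% at a log2 change of 0.15 in size, 38.3% at 0.3 and 91.8% at 0.6. At 0.15, 3 of 50 changed genes were fitted with the wrong sign. The spread between libraries and the hidden factors of the simulation were set and not taken from these data. These shares are therefore not the power for the members. A member not called can still have a small change that was missed. Named genes were all 10 members, called genes of the fixed lists, and genes picked from the data by their correlation with a member. Cyp26a1 was named for its promoter match, and Cd4 and Ptprc as the lymphocyte markers that passed the count filter. The members and lists were chosen with earlier results of these data known. Each library was 1 mouse. Replicate numbers were not used to pair samples in the main model. Of 45 pairs with the same number, 16 had a correlation above 0.1. Pairs of unlike number were not compared, so this cannot show whether the numbers pair mice. Sequences came from RefSeq (GRCm38.p6). The genes nearest to Foxp2 in pattern are not reported here.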

Additional observations from a re-analysis of the deposited data

Results flagged for a closer look

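Of 30 pairs of a member and a genotype group tested for 1 library far from the others, 2 stood apart, and chance sets apart about 1 group in 20. Rarb was at 220 CPM in Htt +/+ Hdac2 WT replicate 8, where the other 7 libraries ran from 181 to 197 CPM. Without that library the Rarb log2 fold change for loss of Hdac2 in Htt +/+ mice went from -0.30 to -0.23 (edgeR, adjusted p = 0.00125) and remained past the threshold. Foxp4 was at 18.0 CPM in Htt Q111/+ Hdac2 WT replicate 6, where the other 6 libraries ran from 20.8 to 22.8 CPM. Without it the Foxp4 log2 fold change for Htt Q111 in mice with Hdac2 went from +0.29 to +0.33 (adjusted p = 0.0129).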

How the results depend on the processing

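Of 115 counts of called members under other settings, 87 stayed within 1.5 times the reported count, and of 209 fold changes of called members 173 kept their call, 36 lost it and 0 changed sign. For loss of Hdac2 in Htt +/+ mice (3 called), the count was 1 with extraction date in the model, and 5 with ID series, with the replicate block and with only the groups compared. For loss of Hdac2 in Htt Q111/+ mice (2 called), it was 1 without surrogate variables, with sex, in males only and with no count filter, and 0 with extraction date and with the replicate block. For Htt Q111 with Hdac2 present (1 called), it was 4 with extraction date, with ID series and without the mice of the A series, 2 with the DESeq2 Wald test, and 0 without surrogate variables, with sex, with the replicate block, with only the groups compared, in males only and with no count filter. In mice with both genotypes (5 called), it was 1 with extraction date. For the averaged Htt Q111 effect (2 called), it was 1 without surrogate variables, with sex, with the replicate block, with no count filter and without the 3 libraries of high cortical markers, 0 in males only and 4 without the A series. Males only left fewer libraries, and the cause of the other changes was not tested. Rarb kept its call in Htt +/+ mice in 15 of 15 settings (-0.34 to -0.23), Rxrg in 14 and Meis2 in 13, and Foxp4 for Htt Q111 in 8 of 15. For Hdac2 genotype, the setting with extraction date rested on the 2 KO libraries extracted on days of WT mice. The settings without 3 libraries or without 1 replicate, and those of the ID series split, were chosen after seeing the data. Whether replicate numbers pair the mice is not known (correlations of -0.34 to 0.50 over 45 pairs of the same number). Ikzf1 had 156 to 268 counts per library, the fewest of the members, which limits its precision.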
